A study of Homo sapiens with 12 samples.

Results

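Interferon-stimulated genes are the genes that a cell turns on when interferon, or viral nucleic acid sensed inside it, reaches the interferon signalling chain. Interferon at its receptor activates the kinases JAK1 and TYK2, and the phosphorylated STAT2 acts with IRF9 in a complex that binds a promoter element called the ISRE and drives these genes. Their products bind or cut viral RNA, hold virus at membranes, and tag proteins with the ubiquitin-like ISG15, and several of them (IRF7, the RNA sensors, USP18) feed back on the same chain. The 43 genes described here were chosen by symbol as members of this pathway, with earlier results of these data known, and 43 of 43 were found among the 57820 genes of the file. All 43 averaged 10 or more normalized reads across the 12 libraries and were tested among 23128 genes.

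The libraries came from HL60, an established human acute myeloid leukaemia line of promyelocytic type, grown in RPMI-1640 with fetal bovine serum. TFEB-Dox cells carried pRRL-TFEBS211A-puro, a vector that expresses TFEB S211A when doxycycline is present, and received doxycycline. TFEB-Veh cells carried the same vector and received vehicle. EV-Dox cells carried the empty vector pRRL-EV-puro and received doxycycline, and EV-Veh cells carried the empty vector and received vehicle. Each group had 3 libraries from biologically independent experiments, per the series description, and the labels' treatment protocol gives 1 µg/ml doxycycline for 48 h for all 12 libraries, vehicle ones included, so the treatment of each library was taken from its title and treatment label. TFEB is a transcription factor of lysosome and autophagy genes, and S211A removes the serine through which the kinase mTORC1 keeps it in the cytoplasm. TFEB-Dox therefore carries drug and transgene together, so the response of the empty vector line was set beside it to separate the rise with doxycycline alone from what the TFEB line adds. The transgene is overexpressed in 1 transduced line, and total RNA of bulk cultures was read, so fewer expressing cells and less RNA per cell cannot be told apart.

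The promoters of 4 members that carry the main contrasts are shown first: IFI6 and IFIT1, both higher with doxycycline in the empty vector line, LGALS3BP, higher there but not in the TFEB line, and ISG20, the member with the largest rise in the TFEB line. Each run is 250 bases before to 50 bases after the RefSeq start site (GRCh38.p14), 5′ to 3′ on the gene's strand, with ISRE matches (GAAA, any 2 bases, GAAA, or its reverse complement) in capitals. IFI6 lies on the minus strand at chr1:27672143-27672442, IFIT1 on the plus strand at chr10:89392373-89392672, LGALS3BP on the minus strand at chr17:78979874-78980173 and ISG20 on the plus strand at chr15:88638766-88639065.
IFI6: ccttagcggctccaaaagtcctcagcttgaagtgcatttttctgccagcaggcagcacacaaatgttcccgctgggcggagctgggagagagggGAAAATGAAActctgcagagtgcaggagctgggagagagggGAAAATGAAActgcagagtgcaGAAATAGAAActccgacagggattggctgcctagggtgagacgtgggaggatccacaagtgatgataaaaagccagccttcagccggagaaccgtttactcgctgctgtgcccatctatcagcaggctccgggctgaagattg
IFIT1: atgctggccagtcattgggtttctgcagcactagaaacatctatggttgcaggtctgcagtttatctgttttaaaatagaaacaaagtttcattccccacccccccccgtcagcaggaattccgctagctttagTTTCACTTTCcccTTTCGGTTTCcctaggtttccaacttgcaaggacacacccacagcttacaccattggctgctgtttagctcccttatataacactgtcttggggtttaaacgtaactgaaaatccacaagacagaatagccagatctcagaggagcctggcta
LGALS3BP: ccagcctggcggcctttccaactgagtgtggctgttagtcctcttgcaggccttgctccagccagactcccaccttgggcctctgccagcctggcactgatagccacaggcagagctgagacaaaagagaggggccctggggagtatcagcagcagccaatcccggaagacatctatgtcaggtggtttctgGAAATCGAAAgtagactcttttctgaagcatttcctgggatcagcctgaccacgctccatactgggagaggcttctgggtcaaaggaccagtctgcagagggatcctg
ISG20: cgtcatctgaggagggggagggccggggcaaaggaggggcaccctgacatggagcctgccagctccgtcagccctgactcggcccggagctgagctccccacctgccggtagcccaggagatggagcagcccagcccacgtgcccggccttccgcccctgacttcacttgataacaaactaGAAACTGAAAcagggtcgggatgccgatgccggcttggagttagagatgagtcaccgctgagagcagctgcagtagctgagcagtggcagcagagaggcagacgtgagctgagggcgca
IFI6 held 3 ISRE matches, starting 156, 115 and 93 bases before the start site, and IFIT1 held 2 in a tight pair starting 116 and 103 bases before it. LGALS3BP held 1 match, 58 bases before the start site, and ISG20 held 1, 69 bases before it, beside 1 E-box.

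Of the 43 members, 35 had a RefSeq promoter entry (DDX58 under its newer symbol RIGI), and IFIT2, IFITM2, MX2, OAS2, OASL, IRF7, USP18 and TRIM22 had none. An ISRE match was present in 22 of the 35 promoters (62.9%), against 996 of all 27305 promoters of the same length (3.65%). The 40 matches, counted on both strands with overlapping ones counted separately, began between 164 bases before and 11 bases after the start site. The STAT element GAS (TTCNNNGAA, the same on both strands) was in 10 of 35 promoters (28.6%), against 7.88% of all. The E-box CACGTG was in 5 of 35 (14.3%), against 7.43% of all, and the longer TFEB element CLEAR (the E-box with GT before it and AC after it) was in 0 of 35, against 0.381% of all. The ISRE was in 5 of the 10 members with an entry that rose with doxycycline in the TFEB line under each scaling described below, and in 7 of the 10 with an entry that rose in the empty vector line. Among members with an entry and no call under each scaling, it was in 16 of 23 in the TFEB line. In the empty vector line it was in 15 of 25 such members. A match describes the letters of the window and does not show a bound site.

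The libraries held 4474007 to 22488047 reads, with the lowest in EV-Dox replicate 3. TFEB itself had 17468, 22629 and 14470 normalized reads in TFEB-Dox cells, against 105, 118 and 149 in TFEB-Veh cells, higher by 7.18 on the log2 scale (SE 0.44, adjusted p 3.14e-17 by limma). It had 127, 83.9 and 79.8 in EV-Dox cells and 129, 196 and 110 in EV-Veh cells, so the transgene was on in the group labelled for it and in no other. The HL60 labels were checked on promyelocyte markers: MPO, the granule peroxidase, ranged over 4571 to 6504 normalized reads in TFEB-Dox, 42625 to 81792 in TFEB-Veh, 3796 to 24774 in EV-Dox and 55736 to 187310 in EV-Veh cells. Of 9 such markers 4 fell with doxycycline in the TFEB line, against 4.66% of all genes, and 8 in the empty vector line, against 23.3%. Their part in the results was not tested. Markers chosen for lymphocytes, plasmacytoid dendritic cells, erythroid and stromal cells had a median of 8.20 normalized reads per kilobase of exon. They ran from 3.41 to 368, with NKG7 highest (1134 in TFEB-Dox cells), so not all of them were near-silent. The members had a median of 24.9 per kilobase, with IFI44L lowest at 5.44 and ADAR highest at 414, and 16 of 43 lay below 2 times the median of those markers. These 16 include IFIT1, IFIT2, IFIT5, IFI44, IFI44L, RSAD2, MX1, LGALS3BP, USP18, IFITM1 and IRF9.

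The deposited values are scaled on all genes, and the well-expressed nuclear genes (7290 that averaged 200 or more) did not centre on zero on that scale. Their median log2 change was 0.73 in TFEB-Dox over TFEB-Veh, -1.29 in EV-Dox over EV-Veh, 1.38 in TFEB-Dox over EV-Dox and 2.04 in the interaction. Rescaling each library so that these genes centre on zero, called the expressed-gene scale here, moved the median of all tested genes to -0.72, 1.05, -1.25 and -1.67 in these comparisons, against -0.00, -0.19, 0.07 and 0.31 on the deposited scale. For TFEB-Veh over EV-Veh it was 0.38, against -0.25. Directions between groups therefore depend on the scale for many genes. A member is called when its adjusted p is under 0.05 on the deposited scale (limma over all 23128 genes), and the calls that also hold with the same sign under the deposited, TMM, upper-quartile, total and expressed-gene scalings are named as such. Each other scaling moved the median of EV-Dox over EV-Veh up, and those of TFEB-Dox over EV-Dox and the interaction down. All 783 genes called higher in EV-Dox over EV-Veh kept the call under each scaling. So did all 1242 called lower in TFEB-Dox over EV-Dox and all 1422 called lower in the interaction. For calls of these directions, holding under each scaling adds no support.

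The members were also summed as a share of the reads on nuclear genes (RPM), which itself scales each library by its nuclear read total. The 43 members took 1024, 1224 and 1217 RPM in TFEB-Dox cells, against 1142, 1028 and 1086 in TFEB-Veh cells. They took 1790, 1920 and 1872 in EV-Dox cells, against 1112, 1058 and 1198 in EV-Veh cells. The EV-Dox libraries stood above the other 9, while the ranges of the TFEB-Dox and TFEB-Veh groups overlapped. Genes with a mean under 200 also took a larger part of the nuclear reads in EV-Dox cells, 18.2 ± 8.13% against 8.15 ± 2.11% in EV-Veh cells (SD, n = 3 each). Among the 13 members that averaged 200 or more, the share was 1284 ± 89.7 RPM in EV-Dox cells and 923 ± 29.4 RPM in EV-Veh cells (SD, n = 3 each), with ranges that did not overlap. On the deposited scale the order was different: the summed values averaged 17853 ± 4922 in TFEB-Dox cells and 8035 ± 1835 in TFEB-Veh cells, and 9257 ± 4056 in EV-Dox cells and 13001 ± 4946 in EV-Veh cells (SD, n = 3 each). ADAR alone gave 5137 to 8561 of the sum in TFEB-Dox cells.

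**Figure D1:**
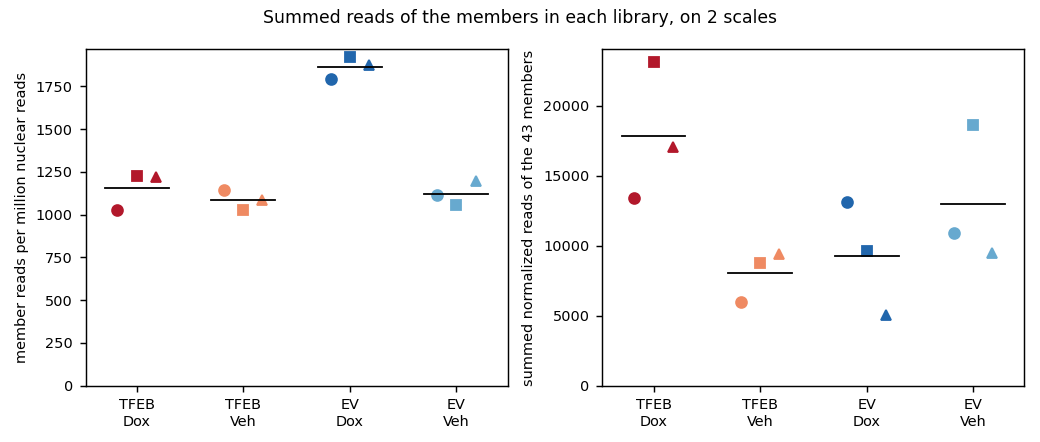
Summed reads of the 43 members in each library, as RPM of nuclear genes (left) and as summed normalized reads (right). Points are libraries (circle, square and triangle for replicates 1, 2 and 3), lines are group means. On the left the 3 EV-Dox libraries sit at 1790 to 1920 RPM, above the other 9, and on the right the TFEB-Dox libraries have the highest mean.

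Doxycycline alone, in the empty vector line, raised 11 of the 43 members and lowered 1. Over all tested genes 3.39% were called higher and 23.3% lower in this comparison (25.6% and 2.33% of the members). The 11 were IFI6, IFI44, IFI44L, IFIT1, IFIT2, IFIT3, OAS1, OAS3, RSAD2, SAMD9L and LGALS3BP, with log2 changes from 0.79 (IFI44L) to 1.97 (IFI6). All 11 were called higher under each of the 5 scalings, as were all 783 genes (3.39%) called higher on the deposited scale. The median log2 change of the 43 members was 0.24, against -0.19 over all tested genes. On the expressed-gene scale 35 of 43 were called higher and 0 lower, against 44.1% and 5.75% of all genes, and 9 of the 13 better-expressed members were called higher, against 20.9% of the genes at that level. The only member called lower was IRF1, at -1.37, and its change was -0.09 on the expressed-gene scale, with the call lost without EV-Dox replicate 3 or EV-Veh replicate 2 (adjusted p up to 0.150). Without EV-Veh replicate 2, the most deeply read library, the count of higher members was 7. Without EV-Dox replicate 1 the count of lower members was 5.

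The markers chosen for other cell types were set beside these in the empty vector line. On the deposited scale 0 of 8 lymphocyte, 0 of 7 stromal and epithelial, 0 of 5 plasmacytoid dendritic and 0 of 2 tested erythroid markers were called, with median log2 changes of 0.26, 0.44, 0.18 and 0.68, against 0.24 for the 43 members. On the expressed-gene scale 5 of 8 lymphocyte, 4 of 7 stromal and epithelial, 3 of 5 plasmacytoid dendritic and 1 of 2 tested erythroid markers were called higher, against 44.1% of all genes. The mitochondrial share of reads was 26.2 to 33.1% in EV-Dox cells and 21.0 to 26.5% in EV-Veh cells, and EV-Dox replicates 2 and 3 lay above all EV-Veh libraries. The part of either in the changes of the members was not tested.

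In the TFEB line, doxycycline raised 15 members and lowered 2, against 17.4% and 4.66% of all genes. Of these, 10 higher and 2 lower calls held under each of the 5 scalings. The 10 were ISG20, IFI6, IFIT3, SAMD9L, ISG15, IFI35, STAT2, OAS3, PARP9 and HERC6, with log2 changes from 3.33 (ISG20) to 1.70 (HERC6), against 12.6% of all genes. The lower ones were IRF1 and IFITM1, against 4.42% of all genes. IFIT5, MX1, OAS1, IRF7 and USP18 were called higher on the deposited scale, with log2 changes of 0.89 to 1.48, and not under each scaling. The mitochondrial share was 13.3 to 17.9% in TFEB-Dox and 23.8 to 29.4% in TFEB-Veh libraries, and its part was not tested. The median of the 43 was 0.73, against -0.00 over all tested genes, and on the expressed-gene scale it was -0.02, against -0.72. The median of the well-expressed genes was also 0.73, with 31.5% of them called higher, and 4 of the 13 better-expressed members were called higher. Of those 13, 6 were higher and 3 lower on the expressed-gene scale, against 34.4% and 33.2% of the genes at that level.

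The sets raised in the TFEB line and the empty vector line overlapped in part. Under each scaling 4 members rose in both lines (IFI6, IFIT3, OAS3 and SAMD9L), which is 40% of the 10 in the TFEB line and 36.4% of the 11 in the empty vector line. The other 6 of the TFEB line, among them ISG20, ISG15 and STAT2, and the other 7 of the empty vector line, among them LGALS3BP and IFIT1, were called in 1 line only, and whether the lines differed was tested by the interaction and not by these lists.

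**Figure D2:**
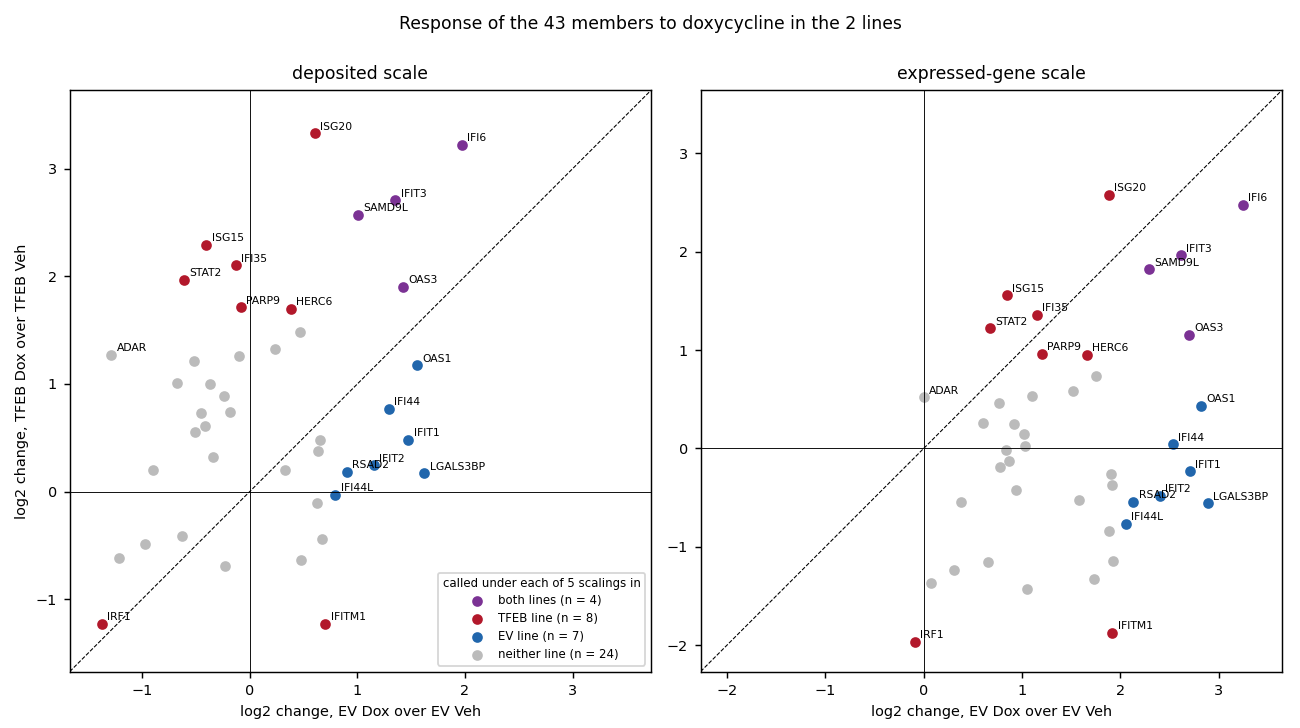
log2 change of each member with doxycycline in the TFEB line (vertical axis) against the empty vector line (horizontal axis), on the deposited scale (left) and the expressed-gene scale (right). Each point is 1 member, coloured by the line in which it was called under each of 5 scalings, and the dashed line marks equal change. ISG20 lies above the line of equal change and LGALS3BP below it in both panels, while IFI6 and IFIT3 change sides between the panels.

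With doxycycline in both lines, TFEB-Dox cells had 12 members higher and 5 lower than EV-Dox cells, against 27.2% and 5.37% of all genes, so the share of higher members (27.9%) was close to the background. Under each scaling 2 members were higher, ISG20 and STAT2, against 13.3% of all genes. The 5 lower members were LGALS3BP, IFITM3, IFITM1, CMPK2 and IFIT1. All 5 held under each scaling, as did all 1242 genes (5.37%) called lower on the deposited scale. On the expressed-gene scale 3 members were called higher and 26 lower, against 14.2% and 57.6% of all genes. The lymphocyte markers CD3D, CD79A and GNLY were also lower under each scaling (CD3D fell by 1.42 on the log2 scale), while NKG7 was higher by 3.61; the part of that in the lower members was not tested. Without TFEB-Dox replicate 2 or EV-Dox replicate 3 the count of higher members was 6, and without EV-Dox replicate 1 or 2 that of lower members was 2.

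The interaction asks directly whether the response to doxycycline differed between the lines. It was called for 12 members in the direction of a larger rise in the TFEB line and for 2 in the other, against 29.2% and 6.15% of all genes. ADAR was the only one of the 12 that held under each scaling, against 10.8% of all genes. LGALS3BP and IFITM1 were the 2 of the other direction, against 6.15% of all genes. Both held under each scaling, as did all 1422 genes called in that direction. On the expressed-gene scale 1 member was called in the first direction and 27 in the other, against 11% and 57.8% of all genes. Without TFEB-Dox replicate 2 or TFEB-Veh replicate 1 the count in the first direction was 5 on the deposited scale. The sign of the interaction turned negative on the expressed-gene scale in 7 of the 12: IFIT3, IFIT5, IFIH1, HERC6, SAMD9L, PARP9 and USP18.

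Without doxycycline no member was called between the lines. TFEB-Veh over EV-Veh gave 0 members higher and 0 lower with limma, 0 of 43 at an unadjusted p under 0.05, 0 with edgeR on recovered reads, and 0% of all genes called. The members' log2 changes ran from -0.87 to 0.54. The median of expressed genes in this comparison was -0.66.

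**Figure D3:**
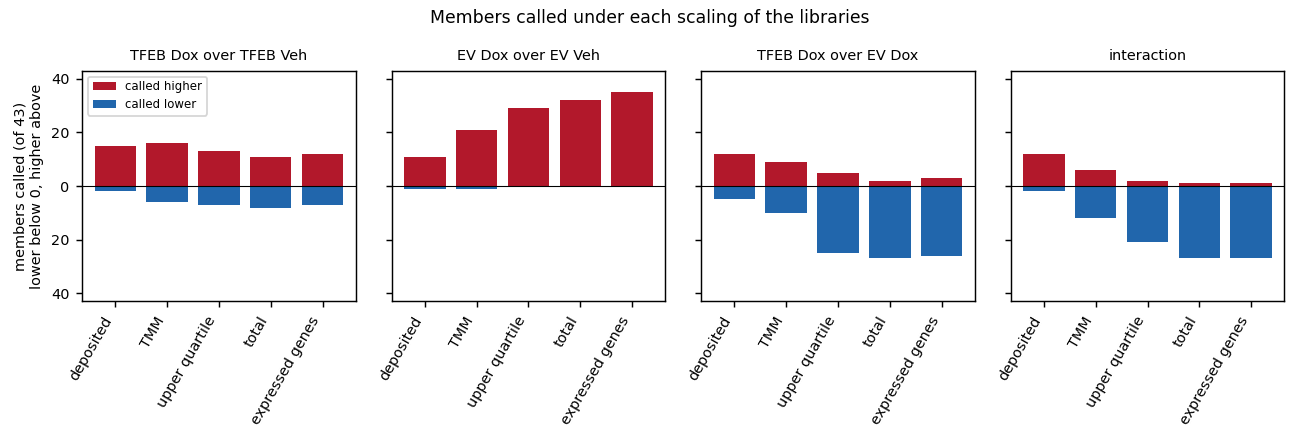
Number of members called higher (red, above zero) and lower (blue, below zero) of 43 in 4 comparisons under each of 5 scalings of the libraries. The TFEB line keeps 11 to 16 higher members, the empty vector line goes between 11 and 35, and the calls of TFEB-Dox over EV-Dox and of the interaction move from mostly higher on the deposited scale to mostly lower on the expressed-gene scale.

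The other 3 scalings gave counts as follows. Under TMM, a trimmed-mean scaling, 16 members were higher and 6 lower in the TFEB line, against 19% and 9.28% of all genes, and 21 and 1 in the empty vector line, against 18.9% and 16.6%. TFEB-Dox over EV-Dox then gave 9 higher and 10 lower members, against 25.8% and 15.3% of all genes, and the interaction 6 and 12, against 23.1% and 24.3%. With equal upper quartiles the TFEB line gave 13 and 7, against 15% and 21.9%, and the empty vector line 29 and 0, against 31.4% and 10%. TFEB-Dox over EV-Dox gave 5 and 25, against 16.9% and 49.1%, and the interaction 2 and 21, against 13.8% and 50.3%. With equal library totals the TFEB line gave 11 and 8, against 13.3% and 28.9%, and the empty vector line 32 and 0, against 35.6% and 8.14%. TFEB-Dox over EV-Dox gave 2 and 27, against 13.3% and 61.9%, and the interaction 1 and 27, against 11.3% and 57.9%. In both the TFEB line and the empty vector line the share of members called higher was above that of all genes under each of the 5 scalings. All genes differ from the members in level. Of the 13 better-expressed members, 4 were higher in the TFEB line on the deposited scale, against 31.5% of genes at that level. On the expressed-gene scale 6 were, against 34.4%. In the empty vector line these counts were 1, against 0.37%, and 9, against 20.9%.

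The transcription factors of the pathway did not move together. STAT2, the subunit that links the interferon complex to transcription, had 884, 1605 and 1119 normalized reads in TFEB-Dox cells, against 216, 299 and 405 in TFEB-Veh cells. It had 577, 401 and 124 in EV-Dox cells, against 409, 665 and 376 in EV-Veh cells. All 3 TFEB-Dox libraries lay above the 9 others. STAT2 rose by 1.97 (SE 0.50, adjusted p 0.00274) over TFEB-Veh and by 1.93 (SE 0.50, adjusted p 0.00242) over EV-Dox, under each scaling. Against EV-Dox the call held on the deposited scale with each library left out, but not under each scaling without TFEB-Dox replicate 2, TFEB-Dox replicate 3 or EV-Dox replicate 3.

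IRF1, an activator induced by interferon and by NF-kB, went the other way. It had 104, 89.3 and 91.7 normalized reads in TFEB-Dox cells, against 162, 247 and 278 in TFEB-Veh cells, with no overlap. EV-Dox cells had 224, 129 and 57.4, against 270, 505 and 215 in EV-Veh cells, where the ranges met. IRF1 fell in the TFEB line by 1.23 on the log2 scale (SE 0.42, adjusted p 0.0292), under each scaling. The call was lost without any 1 of the 3 TFEB-Dox libraries or TFEB-Veh replicates 2 or 3 (adjusted p up to 0.119).

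IRF7, which carries the amplifying second wave of interferon induction, had 105, 296 and 234 normalized reads in TFEB-Dox cells, against 74.0, 81.1 and 74.5 in TFEB-Veh cells. EV-Dox cells had 279, 209 and 68.2, against 124, 212 and 92.0 in EV-Veh cells, a wider spread with overlap on the deposited scale. On the expressed-gene scale EV-Dox cells had 310, 327 and 218, against 104, 96.0 and 92.3 in EV-Veh cells, without overlap. There 44.1% of all genes were called higher in this comparison. On that scale IRF7 had 81.7, 163 and 172 in TFEB-Dox cells, against 118, 79.5 and 71.5 in TFEB-Veh cells, with overlap. Its log2 change in the TFEB line was 1.33 (SE 0.43, adjusted p 0.0190) on the deposited scale and 0.58 (adjusted p 0.116) on the expressed-gene scale, and the call was lost without TFEB-Dox replicates 2 or 3 or TFEB-Veh replicates 1 or 3 (adjusted p up to 0.157). IRF9, the DNA-binding partner of STAT2, had 32.5, 43 and 15.9 in TFEB-Dox cells, against 18.3, 14.5 and 16.9 in TFEB-Veh cells. It had 47.5, 28.5 and 7.18 in EV-Dox cells, against 32.8, 26.8 and 17.4 in EV-Veh cells. IRF9 was called in none of the 5 comparisons on the deposited scale, and its level per kilobase (6.62 normalized reads) is among the lowest of the members.

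The cytosolic RNA sensors DDX58 (RIG-I) and IFIH1 (MDA5), which start interferon production on viral RNA, and the helicase DDX60 were not called within either line on the deposited scale. On the expressed-gene scale all 3 were called higher in EV-Dox than in EV-Veh cells, against 44.1% of all genes. IFIH1 had 185, 335 and 241 normalized reads in TFEB-Dox cells, against 157, 128 and 78.0 in EV-Dox cells. TFEB-Veh cells had 94.1, 116 and 166, and EV-Veh cells 152, 248 and 172. The TFEB-Dox values lay above those of EV-Dox and TFEB-Veh cells and overlapped those of EV-Veh cells. Its change over EV-Dox was 1.08 (SE 0.38, adjusted p 0.0277) on the deposited scale and -0.29 on the expressed-gene scale, so the sign turns with the scaling, and the call was lost without TFEB-Dox or EV-Dox replicates 2 or 3 (adjusted p up to 0.160).

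Among the enzymes that act on RNA, ISG20, an exonuclease that degrades single-stranded RNA, had the smallest adjusted p of the members in the TFEB line. It had 689, 771 and 575 normalized reads in TFEB-Dox cells, against 78.5, 53.0 and 69.5 in TFEB-Veh cells. EV-Dox cells had 119, 99.8 and 99.6, against 58.5, 83.3 and 67.8 in EV-Veh cells. The TFEB-Dox libraries stood clear of the other 9, and the EV-Dox libraries lay above the EV-Veh ones. ISG20 rose by 3.33 (SE 0.35, adjusted p 2.14e-10) over TFEB-Veh and by 2.66 (SE 0.35, adjusted p 4.66e-08) over EV-Dox, both under each scaling and with each library left out in turn. The interaction was 2.72 (SE 0.49, adjusted p 3.81e-05) on the deposited scale and 0.70 (adjusted p 0.209) on the expressed-gene scale.

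The oligoadenylate synthetases make the messenger that activates RNase L. OAS1 had 57.6, 161 and 106 normalized reads in TFEB-Dox cells, against 47.5, 40.2 and 43.7 in TFEB-Veh cells. It had 212, 148 and 70.9 in EV-Dox cells, against 48.0, 40.7 and 43.6 in EV-Veh cells. Drug-treated cells of both lines lay above their vehicle cells, and the drug-treated groups overlapped each other. The OAS1 rise in the empty vector line was 1.55 (SE 0.35, adjusted p 0.00407) and held with each library left out. It also held under each scaling, as did all 783 genes called higher there, which adds no support. In the TFEB line the OAS1 change of 1.17 (SE 0.35, adjusted p 0.0117) was not called without TFEB-Dox replicate 2 (adjusted p 0.153).

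OAS3 had 206, 399 and 313 normalized reads in TFEB-Dox cells, against 84.9, 72.3 and 78.5 in TFEB-Veh cells, and 202, 144 and 125 in EV-Dox cells, against 59.7, 38.7 and 78.5 in EV-Veh cells. It rose under each scaling in both lines, by 1.90 (SE 0.36, adjusted p 5.56e-05) and 1.43 (SE 0.36, adjusted p 0.00682). In the empty vector line so did all 783 genes called higher. Without EV-Veh replicate 2 the call in the empty vector line was lost (adjusted p 0.0770), and in the TFEB line 7 of 12 left-out libraries ended the call under at least 1 scaling though not on the deposited scale. Its interaction of 0.48 (SE 0.50) was not called. OAS2 and OASL, each with a mean under 50, were called in none of the comparisons on the deposited scale.

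ADAR, the RNA editing enzyme whose interferon-induced form marks self RNA, had the highest level per kilobase of the members. It had 5137, 8561 and 5749 normalized reads in TFEB-Dox cells, against 1792, 3189 and 3143 in TFEB-Veh cells. EV-Dox cells had 3268, 2069 and 903, against 3902, 7231 and 3156 in EV-Veh cells. The TFEB-Dox libraries lay above the TFEB-Veh ones without overlap, and the EV-Dox and EV-Veh libraries overlapped. Neither within-line change was called on the deposited scale. The interaction was 2.56 (SE 0.81, adjusted p 0.0138) on the deposited scale and 0.52 (adjusted p 0.0166) on the expressed-gene scale. Without TFEB-Dox replicate 2 it was lost on the deposited scale (adjusted p 0.0541), and 6 of 12 left-out libraries ended the call under at least 1 scaling. EIF2AK2, the kinase PKR that halts translation on double-stranded RNA, was called in none of the comparisons on the deposited scale. On the expressed-gene scale EIF2AK2 had 1539, 1551 and 1603 in EV-Dox cells, against 904, 868 and 982 in EV-Veh cells, without overlap. In that comparison and scale 6 of the 7 enzymes that act on RNA were called higher, against 44.1% of all genes.

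The IFIT proteins bind viral RNA that lacks the host cap marks, and IFIT3 steadies IFIT1. IFIT3 had 111, 367 and 264 normalized reads in TFEB-Dox cells, against 25.6, 31.3 and 44.7 in TFEB-Veh cells. It had 93.4, 82.2 and 73.5 in EV-Dox cells, against 28.1, 34.7 and 32.9 in EV-Veh cells. Each drug-treated group lay above its vehicle group, with TFEB-Dox highest. The rises were 2.71 (SE 0.34, adjusted p 1.79e-08) in the TFEB line and 1.35 (SE 0.34, adjusted p 0.00679) in the empty vector line, both kept with each library left out.

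The interaction of IFIT3 was 1.36 (SE 0.48, adjusted p 0.0252) on the deposited scale and -0.65 (adjusted p 0.316) on the expressed-gene scale, and it was lost without TFEB-Dox replicates 2 or 3 or TFEB-Veh replicate 1 (adjusted p up to 0.120). IFIT1 and IFIT2 were called in the empty vector line and not in the TFEB line, and neither interaction was called on the deposited scale. IFIT1 ranged over 14.7 to 33.4 normalized reads in TFEB-Dox cells and 13.9 to 19.3 in TFEB-Veh cells, and over 33.2 to 56.0 in EV-Dox cells and 13.9 to 16.5 in EV-Veh cells. IFIT1 rose by 1.47 (SE 0.33, adjusted p 0.00358) in the empty vector line, and TFEB-Dox was below EV-Dox by 0.88 on the log2 scale (SE 0.33, adjusted p 0.0328) with ranges that just met, a call lost without TFEB-Dox replicate 1 or EV-Dox replicates 1 or 2 (adjusted p up to 0.217). In the empty vector line IFIT2 rose by 1.15 (SE 0.33, adjusted p 0.0139), and not without EV-Veh replicate 1 (adjusted p 0.0586). IFIT5 had 49.2, 93.6 and 110 in TFEB-Dox cells, against 38.4, 49.8 and 40.7 in TFEB-Veh cells, and 67.9, 41.9 and 43.1 in EV-Dox cells, against 53.9, 61.5 and 62.0 in EV-Veh cells. Its call in the TFEB line (0.89, SE 0.31, adjusted p 0.0339) was 0.15 on the expressed-gene scale, and was lost without TFEB-Dox replicates 2 or 3 or TFEB-Veh replicates 1 or 3 (adjusted p up to 0.213).

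Membrane restriction factors had no member called higher in any comparison on the deposited scale. IFITM1, IFITM2 and IFITM3 block fusion of viral and cell membranes, and their near-identical sequences make the split of reads among them uncertain. IFITM1 had 3 to 8 reads in the TFEB-Dox libraries, against 13 to 26 in TFEB-Veh, 12 to 30 in EV-Dox and 6 to 20 in EV-Veh libraries. Its interaction of -1.93 (SE 0.65, adjusted p 0.0197) rests on these few reads, and was lost without TFEB-Veh replicate 2, EV-Dox replicate 1 or EV-Veh replicate 1 (adjusted p up to 0.0595). Its fall in the TFEB line (-1.23, SE 0.46, adjusted p 0.0494) was lost in 7 of 12 fits that each left out 1 library (adjusted p up to 0.205). IFITM3, at 9.43 to 15.9 normalized reads in TFEB-Dox cells and 22.4 to 47.8 in EV-Dox cells, was lower by 1.45 on the log2 scale (SE 0.34, adjusted p 0.000887), kept with each library left out. BST2 (tetherin), which holds budding virus at the surface, was called nowhere on the deposited scale. IFITM1, IFITM3 and BST2, 3 of the 4 membrane factors, were called higher in EV-Dox than in EV-Veh cells on the expressed-gene scale, by 1.92, 1.73 and 0.77, against 44.1% of all genes.

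Of the GTPases and nucleotide enzymes, MX1, which traps viral ribonucleoproteins, had 168, 292 and 275 normalized reads in TFEB-Dox cells, against 85.8, 86.8 and 81.5 in TFEB-Veh cells. It had 166, 146 and 101 in EV-Dox cells, against 102, 96.2 and 93.0 in EV-Veh cells, a smaller step with overlap on the deposited scale. On the expressed-gene scale 4 of the 4 members of this role were called higher there, against 44.1% of all genes. MX1 then had 184, 228 and 324 in EV-Dox cells, against 85.1, 43.5 and 93.3 in EV-Veh cells, without overlap. In the TFEB line MX1 then had 131, 160 and 203 with doxycycline, against 137, 85.0 and 78.2, with overlap. Its rise in the TFEB line was 1.48 (SE 0.35, adjusted p 0.00119) on the deposited scale and 0.73 (adjusted p 0.0815) on the expressed-gene scale. CMPK2, a mitochondrial nucleotide kinase, had 41.9, 42.0 and 59.9 in TFEB-Dox cells, against 159, 101 and 51.1 in EV-Dox cells. TFEB-Veh cells had 74.9, 77.9 and 78.5, and EV-Veh cells 116, 139 and 82.3. CMPK2 was lower in TFEB-Dox than in EV-Dox by 0.97 on the log2 scale (SE 0.34, adjusted p 0.0250), a call lost without TFEB-Dox or EV-Dox replicates 1 or 2 (adjusted p up to 0.187). Its neighbour RSAD2 (viperin), which makes a chain-terminating nucleotide, was higher in EV-Dox than in EV-Veh by 0.90 (SE 0.33, adjusted p 0.0395), a call lost without any 1 EV-Dox library or EV-Veh replicates 1 or 2 (adjusted p up to 0.340).

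Of the ISG15 system 3 of 4 members were called higher in the TFEB line, against 17.4% of all genes, and 0 of 4 in the empty vector line, against 3.39%. The expressed-gene scale gave 2 of 4 higher in the TFEB line, against 14.4% of all genes, and 1 of 4, HERC6, in the empty vector line, against 44.1%. ISG15, the ubiquitin-like tag, ranged over 71.3 to 160 normalized reads in TFEB-Dox cells and 14.6 to 27.8 in TFEB-Veh cells, and over 14.4 to 32.3 in EV-Dox cells and 26.2 to 45.6 in EV-Veh cells. The TFEB-Dox libraries lay above all others. It rose by 2.29 (SE 0.33, adjusted p 5.05e-07) in the TFEB line under each scaling. The interaction was 2.69 (SE 0.47, adjusted p 2.27e-05) on the deposited scale and 0.71 (adjusted p 0.238) on the expressed-gene scale.

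HERC6, which joins ISG15 to proteins in mouse, had 231, 303 and 259 normalized reads in TFEB-Dox cells, against 71.2, 82.8 and 87.4 in TFEB-Veh cells. It had 155, 133 and 109 in EV-Dox cells, against 89.0, 119 and 94.9 in EV-Veh cells. HERC6 rose by 1.70 (SE 0.34, adjusted p 0.000158) in the TFEB line under each scaling and with each library left out. Against EV-Dox its change was 1.00 (adjusted p 0.0213) on the deposited scale and -0.37 on the expressed-gene scale, and was lost without TFEB-Dox or EV-Dox replicates 2 or 3 (adjusted p up to 0.0955). HERC5, the main human ISG15 ligase, was called nowhere on the deposited scale. USP18, which strips ISG15 and dampens the receptor, rose by 1.26 (SE 0.32, adjusted p 0.00269) on the deposited scale, and a near-identical copy of this gene makes its reads uncertain.

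IFI6, a small membrane protein that protects cells from death and viral replication, had the largest rise of the empty vector line. It had 189, 557 and 443 normalized reads in TFEB-Dox cells, against 35.6, 32.9 and 45.7 in TFEB-Veh cells. EV-Dox cells had 293, 250 and 97.8, against 59.7, 50.6 and 37.8 in EV-Veh cells. Drug-treated cells of both lines lay above their vehicle cells with no overlap. The rises were 3.22 (SE 0.39, adjusted p 8.01e-09) and 1.97 (SE 0.39, adjusted p 0.00151), each kept under each scaling and with each library left out. In the empty vector line all 783 genes called higher kept the call under each scaling. The IFI6 interaction of 1.25 (SE 0.55, 95% interval 0.14 to 2.36, adjusted p 0.0702) was not called and was -0.77 on the expressed-gene scale.

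**Figure D4:**
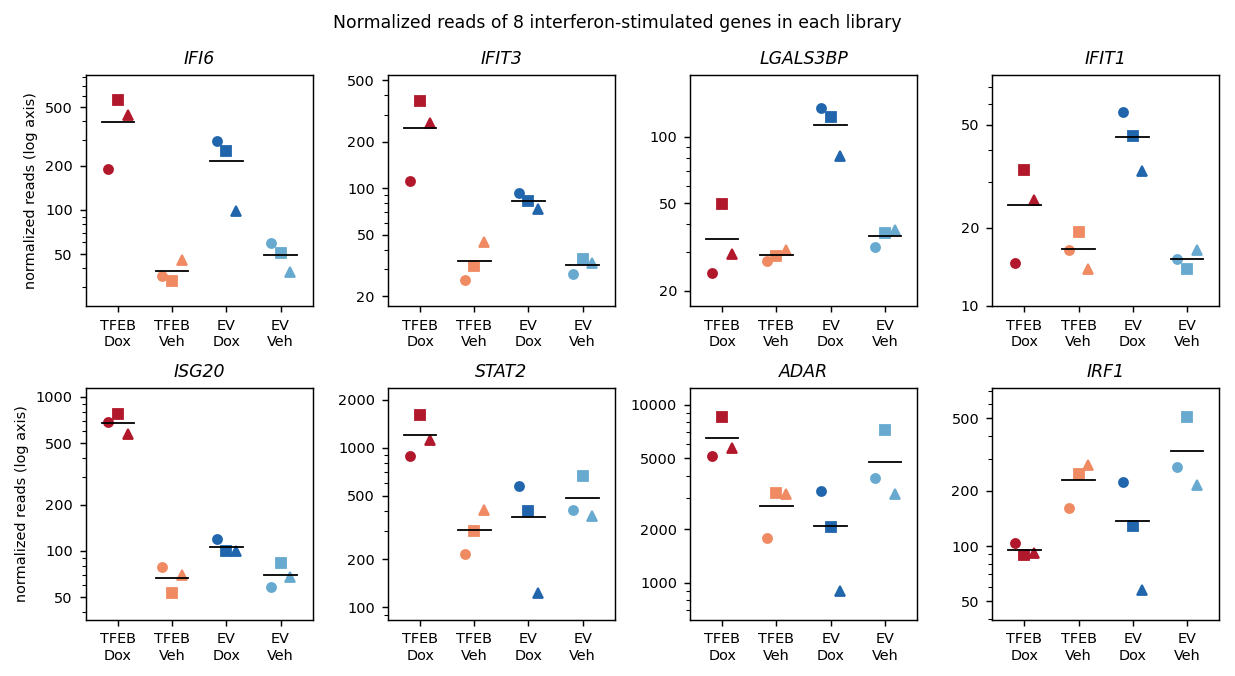
Normalized reads of 8 members in each library, on log axes. Points are libraries (circle, square and triangle for replicates 1, 2 and 3) and lines are group means. IFI6 and IFIT3 are higher with doxycycline in both lines, LGALS3BP and IFIT1 in the empty vector line, ISG20 and STAT2 in the TFEB line, and IRF1 has its lowest means in the drug-treated groups.

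IFI35, a leucine-zipper protein released as a danger signal, had 192, 509 and 375 normalized reads in TFEB-Dox cells, against 58.4, 71.5 and 107 in TFEB-Veh cells. It had 108, 95.6 and 61.9 in EV-Dox cells, against 78.4, 159 and 66.8 in EV-Veh cells. The TFEB-Dox libraries lay above all others, and the rise over TFEB-Veh was 2.10 (SE 0.39, adjusted p 4.04e-05), kept under each scaling and with each library left out. PARP9, a partner in ADP-ribosylation and ubiquitination, had 653, 936 and 730 in TFEB-Dox cells, against 205, 267 and 230 in TFEB-Veh cells, and 449, 372 and 196 in EV-Dox cells, against 323, 555 and 217 in EV-Veh cells. PARP9 rose by 1.71 (SE 0.45, adjusted p 0.00412) in the TFEB line, and TFEB-Dox over EV-Dox was 1.25 (adjusted p 0.0300) on the deposited scale and -0.12 on the expressed-gene scale.

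SAMD9L, a brake on growth and poxvirus translation, had 333, 650 and 438 normalized reads in TFEB-Dox cells, against 63.0, 73.1 and 95.4 in TFEB-Veh cells. It had 277, 293 and 141 in EV-Dox cells, against 119, 121 and 95.9 in EV-Veh cells. Both lines separated, but the call in the empty vector line (1.01, SE 0.39, adjusted p 0.0491) was lost in 11 of 12 fits that each left out 1 library, all but the one without EV-Dox replicate 3 (adjusted p up to 0.178), while that in the TFEB line (2.57, SE 0.39, adjusted p 1.15e-06) was kept in 12 of 12. Its interaction was 1.56 (SE 0.55, adjusted p 0.0249) on the deposited scale and -0.47 on the expressed-gene scale.

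LGALS3BP, a secreted glycoprotein that binds galectins, was called in the empty vector line and not in the TFEB line. TFEB-Dox cells had 24.1, 49.5 and 29.4 normalized reads, against 27.4, 28.9 and 30.8 in TFEB-Veh cells. EV-Dox cells had 135, 122 and 81.6, against 31.6, 36.7 and 37.8 in EV-Veh cells. The EV-Dox libraries lay above all others. The rise in the empty vector line was 1.62 (SE 0.30, adjusted p 0.000893), the change of TFEB-Dox over EV-Dox was -1.72 (SE 0.30, adjusted p 1.20e-05) and the interaction was -1.45 (SE 0.42, adjusted p 0.00740), each kept with each library left out. Each also held under every scaling, as did every gene called in the same direction in these comparisons.

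IFI44L had 60.8, 43 and 46.5 normalized reads in TFEB-Dox cells, against 53.0, 45.8 and 53.6 in TFEB-Veh cells, and 74.7, 78.0 and 77.1 in EV-Dox cells, against 56.2, 30.7 and 48.4 in EV-Veh cells. Its rise of 0.79 (SE 0.29, adjusted p 0.0425) in the empty vector line was lost in 7 of 12 fits that each left out 1 library (adjusted p up to 0.251). The related IFI44 rose there by 1.29 (SE 0.31, adjusted p 0.00593) and was kept in 12 of 12. IFI27, XAF1, SAMD9, PARP14, EPSTI1 and TRIM22 were called nowhere on the deposited scale.

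**Figure D5:**
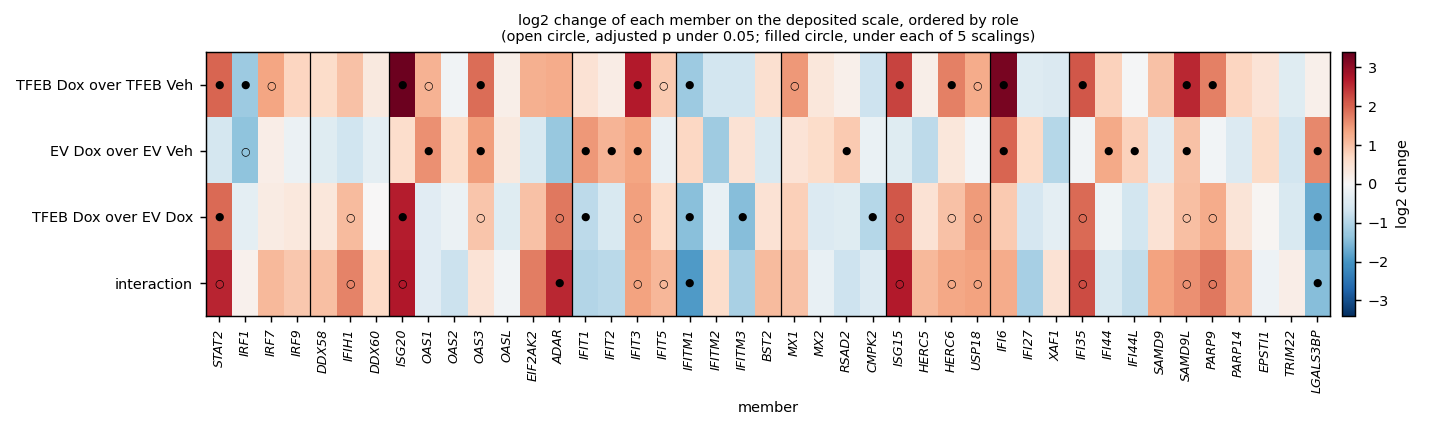
log2 change of the 43 members on the deposited scale in 4 comparisons (rows), with members ordered by role: transcription factors, sensors, RNA enzymes, IFIT family, membrane factors, GTPases and nucleotide enzymes, ISG15 system, small proteins and others. Colour gives the change, open circles mark an adjusted p under 0.05 and filled circles calls under each of 5 scalings. Filled circles of the TFEB line run from 3.33 (ISG20) to -1.23, and those of the empty vector line reach 1.97 (IFI6).

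Other genes of the pathway were taken from lists fixed by role. The interferon genes themselves had 0.850 to 9.24 normalized reads per kilobase, and of 21 such ligands 1 (IFNG) averaged 10 or more and was not called. IFNA1, an interferon-alpha gene, had 11.5, 32.3 and 23.2 normalized reads in TFEB-Dox cells, against 3.65, 2.41 and 0 in TFEB-Veh cells. It had 0, 0.839 and 7.18 in EV-Dox cells, against 0, 1.98 and 0.969 in EV-Veh cells. The TFEB-Dox libraries lay above the other 9, with a mean of 25.9 normalized reads per kilobase, but IFNA1 averaged under 10 reads and was not tested, and near-identical genes of its family make its reads uncertain. Of 11 receptors, kinases and STATs, 5 rose and 0 fell in TFEB-Dox over TFEB-Veh, against 17.4% and 4.66% of all genes. In EV-Dox over EV-Veh 0 rose and 0 fell, against 3.39% and 23.3%. The expressed-gene scale gave 5 higher and 2 lower in the TFEB line, against 14.4% and 20.7% of all genes. It gave 6 and 0 in the empty vector line, against 44.1% and 5.75%. Under each scaling IFNGR1, the interferon-gamma receptor chain, and STAT3 were higher in TFEB-Dox than in EV-Dox, by 3.15 (IFNGR1) and 2.01 (STAT3), and both were called in the interaction.

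Of 22 tested sensors and adaptors, 5 were higher and 2 lower in TFEB-Dox than in EV-Dox. IFI16, a DNA sensor, was higher by 3.93, TRAF3 by 2.84 and the kinase TBK1 by 2.01. The 11 negative regulators gave 7 higher and 0 lower, led by SOCS1, the feedback inhibitor of JAK kinases, at 3.98. Of 33 further type I interferon-stimulated genes 15 were higher and 3 lower, with TMEM140 at 3.50 and UBE2L6, the conjugating enzyme for ISG15, at 3.38. Of 16 interferon-gamma-type genes 5 were higher and 1 lower, with WARS, a tRNA synthetase, at 4.29 and CD274 (PD-L1) at 3.92. These counts stand against 27.2% of all genes higher and 5.37% lower. On the expressed-gene scale the sensors and adaptors gave 4 higher and 16 lower, the negative regulators 4 and 4, the further type I genes 6 and 17, and the interferon-gamma-type genes 3 and 9, against 14.2% and 57.6% of all genes. These lists share their samples and scale with the members.

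In EV-Dox over EV-Veh, 3 of the 33 further interferon-stimulated genes and 3 of the 16 interferon-gamma-type genes were higher, against 3.39% of all genes, and 8 and 3 were lower, against 23.3%. With the expressed-gene scale 22 and 10 were higher, against 44.1% of all genes, and 4 and 3 lower, against 5.75%. The rises included LAMP3, a lysosome-associated membrane protein, at 1.03, and WARS was among the falls, at -2.10. SOCS1 had a change of -0.21 there and was not called.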

How the data were processed

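RNA sequencing of 12 libraries was analysed. The submitters' processing notes name the aligner STAR (2.5.3a) and the counter HTSeq (0.6.1). Genome build, annotation and strand setting: not given in the sources used here. The deposited signal is 1 normalized value per gene and library, without a stated unit. In each library the values are whole multiples of 1 step (100% at a tolerance of 0.01, steps 0.803 to 1.22), so counts of whole reads were recovered from the deposited values by division. In EV-Veh replicate 2 and TFEB-Veh replicate 3 the step is within 1% of 1 and recovery cannot be told from rounding.

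Genes averaging 10 or more were tested on log2(value + 1), which understates changes of low genes, with limma 3.58.1 in R 4.3.3 (group means over the 12 libraries, variance trend, two-sided, Benjamini-Hochberg adjustment over 23128 genes, threshold 0.05). Fold changes are on that scale. As alternatives the recovered reads were fitted with edgeR 4.0.16 and with DESeq2 1.42.0: edgeR called 4171 genes higher and 1072 lower in TFEB-Dox over TFEB-Veh, and 719 and 5311 in EV-Dox over EV-Veh. Exon-union lengths are from GENCODE 29, matched by gene ID. The fit was tested on simulated data. Other alternatives were the pseudocount, the filter, the scaling, the variance trend, the groups fitted, a replicate block and each library left out.

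Members, lists and tests were chosen with earlier results of these data known, and the rule of 5 scalings was added after seeing the data. Any member may be named. Values in every library are given for members averaging 50 or more that were called, and for STAT2, IRF1, IRF7 and IRF9. From each list up to 4 called genes with the largest change are named, and CD79A and IFNA1 were named after their values were seen. 1 gene of the pathway lists is not reported here.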

Additional observations from a re-analysis of the deposited data

Results flagged for a closer look

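For 14 members the test of the interaction found that the response to doxycycline differed between the TFEB line and the empty vector line (limma, adjusted p under 0.05, deposited scale). The response in the TFEB line minus that in the empty vector line was 2.72 for ISG20, 2.69 for ISG15, 2.58 for STAT2, 2.56 for ADAR, 2.23 for IFI35, 1.80 for PARP9, 1.69 for IFIH1 and 1.56 for SAMD9L on the log2 scale. It was 1.36 for IFIT3, 1.36 for USP18, 1.32 for HERC6 and 1.13 for IFIT5, and it was negative for LGALS3BP at -1.45 and IFITM1 at -1.93. The 12 positive ones are 27.9% of the members, against 29.2% of all genes, and the sign of 7 of them (IFIT3, IFIT5, IFIH1, HERC6, SAMD9L, PARP9 and USP18) turned negative on the expressed-gene scale. The 2 negative ones stand against 6.15% of all genes. Of the 14, ADAR, LGALS3BP and IFITM1 were called under each of the 5 scalings. For LGALS3BP and IFITM1 this adds no support, as all 1422 genes with a negative call kept it. The LGALS3BP call was kept with each library left out in turn, and that of ADAR under each scaling was lost in 6 of 12 such fits. Groups of 3 libraries are too small for a test of single outlying samples.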

How the results depend on the processing

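The 5-scaling rule was chosen after seeing the data. Counts of members called depended most on the scaling. Under TMM, equal totals, equal upper quartiles and the expressed-gene scale, in that order, TFEB-Dox over TFEB-Veh gave 6, 8, 7 and 7 lower members (2 on the deposited scale). EV-Dox over EV-Veh gave 21, 32, 29 and 35 higher (11), and 0 lower under the last 3 (1). TFEB-Dox over EV-Dox gave 2, 5 and 3 higher under the last 3 (12), and 10, 27, 25 and 26 lower (5). The interaction gave 6, 1, 2 and 1 higher (12), and 12, 27, 21 and 27 lower (2).

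Other settings moved fewer counts. With no filter on low values, and with only genes averaging 50 or more, EV-Dox over EV-Veh gave 7 higher members on the deposited scale and 7 under each scaling. With the same settings TFEB-Dox over EV-Dox gave 3 and 2 lower, also under each scaling, and the interaction gave 1 and 1 lower, also under each scaling. A pseudocount of 0.5 or 5, either filter, no variance trend and, on the deposited scale, DESeq2 left 1 lower member in TFEB-Dox over TFEB-Veh, also under each scaling. EV-Dox over EV-Veh had 2 lower members with a pseudocount of 5, a mean of at least 50, or no variance trend, and 0 with the compared groups alone. Without the variance trend TFEB-Dox over EV-Dox had 3 lower members, also under each scaling. Under each scaling, no filter left 1 higher member in TFEB-Dox over EV-Dox, and no filter or no variance trend left 0 higher in the interaction. The cause was not tested.

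Leaving out 1 library at a time gave 12 to 18 higher and 0 to 2 lower members in TFEB-Dox over TFEB-Veh, 7 to 10 and 0 to 5 in EV-Dox over EV-Veh, 6 to 15 and 2 to 5 in TFEB-Dox over EV-Dox, and 5 to 17 and 1 to 3 in the interaction. Under each scaling the ranges were 9 to 12 and 0 to 2, 7 to 10 and 0 to 0, 1 to 3 and 2 to 5, and 0 to 2 and 1 to 3. TFEB-Veh over EV-Veh gave 0 to 0 throughout.

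With a replicate block EV-Dox over EV-Veh had 2 lower members and the interaction 4 lower, also 4 under each scaling; the block ended no call of a named member. Whether the shared numbers pair the libraries cannot be told from their deviations. Of 18 same-numbered pairs 12 had deviations correlated over 0.1 (r from -0.597 to 0.685), and 6 of 12 libraries correlated best with their own number.

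Reversals of single called members were all by scaling. In TFEB-Dox over EV-Dox, under equal totals, upper quartiles and the expressed-gene scale in that order, the log2 change became -0.49, -0.20 and -0.43 for OAS3, -0.35, -0.0636 and -0.29 for IFIH1, -0.43, -0.14 and -0.37 for HERC6, and -0.42, -0.13 and -0.36 for SAMD9L. PARP9 became -0.18 and -0.12 under equal totals and the expressed-gene scale, and IFIT3 -0.0202 under equal totals. In the interaction the 3 scalings gave -0.61, -0.36 and -0.65 for IFIT3, -0.83, -0.59 and -0.88 for IFIT5, -0.30, -0.0552 and -0.34 for IFIH1, -0.66, -0.42 and -0.71 for HERC6, -0.42, -0.18 and -0.47 for SAMD9L, and -0.53, -0.30 and -0.57 for USP18. PARP9 gave -0.19 and -0.24 under equal totals and the expressed-gene scale.

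Depth limits the 13 members averaging under 50 normalized reads: IFITM1 had 3 to 30 reads per library. With 1 line per vector, the effect of the transgene and differences between the lines, also in their response to doxycycline, cannot be told apart.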
